A study of Mus musculus with 12 samples.

Results

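The genes of oxidative phosphorylation (OXPHOS) were followed through 11 libraries of sorted mouse thymocytes. Members were taken by symbol alone, as the entries starting with mt-Nd, mt-Co, mt-Cytb, mt-Atp, Nduf, Uqcr, Cox4 to Cox8 or Atp5, and as Sdha, Sdhb, Sdhc and Sdhd. This gave 98 of the 11815 entries of the table, 13 encoded by mitochondrial DNA (mtDNA) and 85 by the nucleus. The nuclear set held 76 subunits of the complexes, 8 assembly factors of complex I (Ndufaf1 to Ndufaf7 and Atp5sl) and 1 pseudogene, Atp5l2-ps. Expression was measured by RNA-seq as FPKM, fragments per kilobase of transcript scaled to the mapped fragments of the library, so that levels of different genes can be set side by side per length.

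L-DKO mice carried floxed alleles of Id2 and Id3 (Id2 f/f Id3 f/f) and LckCre, which expresses Cre from the Lck promoter and so deletes floxed alleles in developing T cells. Id3KO mice lacked Id3 in all cells (Id3-/-), and WT mice had intact alleles. The 6 groups were L-DKO iNKT (2 libraries), WT iNKT (1), L-DKO DP (2), WT DP (2), Id3KO γδ (2) and WT γδ (2). DP cells were CD4+ CD8+ thymocytes, without TCRγδ for WT and without CD1d tetramer binding for L-DKO, iNKT cells bound a CD1d tetramer and carried TCRβ, and γδ T cells were TCRγδ+ CD3+. Each library pooled 2 to 3 mice aged 4 to 5 weeks, of the C57BL/6 strain or a C57BL/6 and 129 hybrid. The WT samples are titled B6 and the titles of the mutant samples name no strain, so genotype and strain cannot be told apart here. WT iNKT and WT γδ cells are rare, and the study sorted far fewer WT than mutant cells, so genotype and cell input cannot be told apart. The 2 libraries of a group are called a and b.

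Markers of DP thymocytes (8 of 8 listed genes measured) summed to 3188 to 3586 FPKM in DP libraries and 129 to 447 in the rest. Several libraries departed from their labels or from their partner. Id2 was at 0 and 0.199 FPKM in L-DKO iNKT, against 553 in WT iNKT, while Id3 stood at 30.5 and 22.8 against 42.4, so Id3 did not mark those libraries as deleted. Id3 was at 3.95 and 3.07 FPKM in Id3KO γδ, against 157 and 96.7 in WT γδ. Markers of γδ T cells (6 of 8 listed genes measured) summed to 13.3 and 44.7 FPKM in L-DKO iNKT, against 736 in WT iNKT, and markers of iNKT cells (4 of 7 measured) to 306 and 356, against 1147. Myeloid and dendritic markers (5 of 7 measured) were led by Cd74, H2-Aa and Lyz2. They summed to 15.3 and 34.1 FPKM in Id3KO γδ, against 156 and 199 in WT γδ. For iNKT cells the sums were 18.9 and 27.0 FPKM in the L-DKO libraries and 84.4 in the WT library. Not every marker followed its sum, since 1 of the 5 measured stood higher in the mutant cells in each of these cell types. In DP cells these markers summed to 27.2 and 23.5 FPKM in L-DKO DP, against 9.48 and 9.74 in WT DP. All 5 measured had a log2 fold change above 0 there. Ddx3y, a Y-linked gene, was near 0 in WT iNKT and WT γδ library a and at 8.16 to 254 FPKM in the other libraries. The part of these differences in the results on OXPHOS was not tested, and in sorted bulk samples fewer cells of a type and less RNA per cell cannot be told apart.

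Oxidative phosphorylation makes ATP in the inner mitochondrial membrane. Complexes I and II pass electrons from NADH and succinate to ubiquinone, complex III passes them on to cytochrome c, and complex IV hands them to oxygen. Complexes I, III and IV pump protons, and complex V, the ATP synthase, lets them return. The mtDNA encodes core membrane subunits of complexes I, III, IV and V, whereas complex II is wholly nuclear. Both mtDNA strands are transcribed as long precursors, which are cut at the transfer RNAs, and mt-Nd6 is the sole OXPHOS gene read from the strand opposite to the rest. Thymocytes and mature T cells are known to differ in how far they rely on this pathway.

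Stretches of mtDNA are shown first because the mtDNA-encoded genes carried the largest differences. The transcript of mt-Atp8, from the GENCODE vM1 set (build NCBIM37), is 204 bases long, and its last 43 bases, in capitals, are also the first of mt-Atp6. Reads from that overlap cannot be told apart between the genes, and a transcript this short makes its FPKM sensitive to the length correction. RefSeq places mt-Atp8 on the mitochondrial genome at 7766 to 7969 and mt-Atp6 at 7927 to 8607 (GRCm38.p6).
mt-Atp8: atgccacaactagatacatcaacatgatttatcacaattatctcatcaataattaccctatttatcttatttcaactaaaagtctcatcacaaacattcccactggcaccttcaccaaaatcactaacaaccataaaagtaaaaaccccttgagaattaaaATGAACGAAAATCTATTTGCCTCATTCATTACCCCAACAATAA
The first 60 bases of mt-Nd6 (13552 to 14070, minus strand) and of its neighbour mt-Nd5 (11742 to 13565, plus strand) follow, with each G in capitals, to show the strand difference. G made up 28.1% of mt-Nd6 and 9.98% of mt-Nd5, against 11.5% over the 12 transcripts read in the direction of mt-Nd5. The last 14 bases of mt-Nd5 lie opposite the end of mt-Nd6.
mt-Nd6: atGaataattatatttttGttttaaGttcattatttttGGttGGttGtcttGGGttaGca
mt-Nd5: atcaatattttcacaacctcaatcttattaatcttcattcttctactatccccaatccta

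The mtDNA-encoded genes had the highest mean levels of all members, and most varied more than the nuclear subunits. Across the 11 libraries, the highest value of such a gene was 4.92 to 21.5 times its lowest (median 8.74), against a median of 2.08 and a range of 1.39 to 27.5 (Cox6b2) for nuclear subunits. They took up 4.03% and 5.63% of all FPKM in Id3KO γδ libraries, against 0.544% and 1.03% in WT γδ. The share was 5.35% and 3.64% in L-DKO iNKT, against 1.53% in WT iNKT, and 2.06% and 1.98% in L-DKO DP, against 2.43% and 2.74% in WT DP. The Id3KO γδ mean was 6.15 times the WT γδ mean with no overlap, although 2 libraries against 2 cannot give a two-sided exact permutation p below 0.333. Small RNA, receptor segments, predicted genes and mitochondrial RNA took 39.0% to 65.4% of the FPKM of a library, and the share is read against that total. These classes took 39.0% and 39.7% in L-DKO iNKT, against 64.7% in WT iNKT. Relative to the total without them, the mtDNA-encoded genes stood at 8.77% and 6.03% in L-DKO iNKT, against 4.33% in WT iNKT. The same values were 9.21% and 11.2% in Id3KO γδ, against 1.17% and 2.96% in WT γδ. In L-DKO DP they were 4.32% and 4.06%, against 4.65% and 4.82% in WT DP.

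Id3KO γδ libraries held the highest value of all 13 genes, 12 of them in library b, and WT γδ libraries the lowest of all 13, 12 of them in library a. In complex I, mt-Nd1, beside the quinone site, stood at 3110 and 2031 FPKM in L-DKO iNKT, 1672 in WT iNKT, 1275 and 1065 in L-DKO DP, 995 and 933 in WT DP, 3049 and 3390 in Id3KO γδ, and 411 and 1110 in WT γδ. The proton-pumping subunit mt-Nd2 was at 944 and 678 in L-DKO iNKT, 490 in WT iNKT, 495 and 439 in L-DKO DP, 449 and 444 in WT DP, 1220 and 1460 in Id3KO γδ, and 121 and 272 in WT γδ. For both genes the highest library was of Id3KO γδ and the lowest of WT γδ, with the DP libraries close together. mt-Nd3, a small membrane subunit, was at 545 and 362 FPKM in L-DKO iNKT, 461 in WT iNKT, 255 and 313 in L-DKO DP, 213 and 173 in WT DP, 766 and 739 in Id3KO γδ, and 59.9 and 242 in WT γδ. The pump subunit mt-Nd4 was at 1379 and 955 in L-DKO iNKT, 819 in WT iNKT, 712 and 641 in L-DKO DP, 676 and 684 in WT DP, 1485 and 1949 in Id3KO γδ, and 217 and 556 in WT γδ. mt-Nd4l, whose end overlaps mt-Nd4, was at 887 and 543 in L-DKO iNKT, 362 in WT iNKT, 423 and 395 in L-DKO DP, 440 and 376 in WT DP, 921 and 1171 in Id3KO γδ, and 134 and 212 in WT γδ. The WT iNKT value of mt-Nd3 lay between the L-DKO iNKT libraries, whereas those of mt-Nd4 and mt-Nd4l lay below both. The largest pump subunit, mt-Nd5, was at 1053 and 793 FPKM in L-DKO iNKT, 724 in WT iNKT, 618 and 600 in L-DKO DP, 549 and 505 in WT DP, 1290 and 1722 in Id3KO γδ, and 255 and 474 in WT γδ. mt-Nd6 was at 1077 and 894 in L-DKO iNKT, 442 in WT iNKT, 845 and 893 in L-DKO DP, 751 and 794 in WT DP, 1857 and 2243 in Id3KO γδ, and 319 and 230 in WT γδ. WT iNKT lay below all 4 DP libraries for mt-Nd6, as for mt-Nd4l and mt-Atp8, and for mt-Nd6 alone library a of WT γδ lay above library b.

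In complex III, mt-Cytb (cytochrome b) was at 3282 and 2367 FPKM in L-DKO iNKT, 1922 in WT iNKT, 1616 and 1349 in L-DKO DP, 1492 and 1407 in WT DP, 3304 and 3990 in Id3KO γδ, and 456 and 1232 in WT γδ. The catalytic subunit of complex IV, mt-Co1, was at 4030 and 2858 in L-DKO iNKT, 2945 in WT iNKT, 2226 and 1882 in L-DKO DP, 1927 and 1892 in WT DP, 3698 and 4084 in Id3KO γδ, and 482 and 1877 in WT γδ. Its WT γδ libraries differed more than those of any other gene but mt-Nd3. mt-Co2, which takes electrons from cytochrome c, was at 1420 and 969 FPKM in L-DKO iNKT, 968 in WT iNKT, 832 and 666 in L-DKO DP, 694 and 659 in WT DP, 1254 and 1469 in Id3KO γδ, and 298 and 630 in WT γδ. mt-Co3 was at 1539 and 1113 in L-DKO iNKT, 1063 in WT iNKT, 769 and 744 in L-DKO DP, 669 and 633 in WT DP, 1463 and 1796 in Id3KO γδ, and 240 and 675 in WT γδ. In all 3 complex IV subunits L-DKO iNKT library a lay within the range of the Id3KO γδ libraries. In complex V, the channel subunit mt-Atp6 was at 1903 and 1286 FPKM in L-DKO iNKT, 1170 in WT iNKT, 927 and 836 in L-DKO DP, 1035 and 974 in WT DP, 1996 and 2291 in Id3KO γδ, and 209 and 685 in WT γδ. mt-Atp8 was at 6581 and 3956 in L-DKO iNKT, 2538 in WT iNKT, 3493 and 3482 in L-DKO DP, 3782 and 4200 in WT DP, 9848 and 11793 in Id3KO γδ, and 548 and 1390 in WT γδ. It was the most abundant member in every library but WT iNKT and WT γδ library b, where mt-Co1 stood higher.

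**Figure D1:**
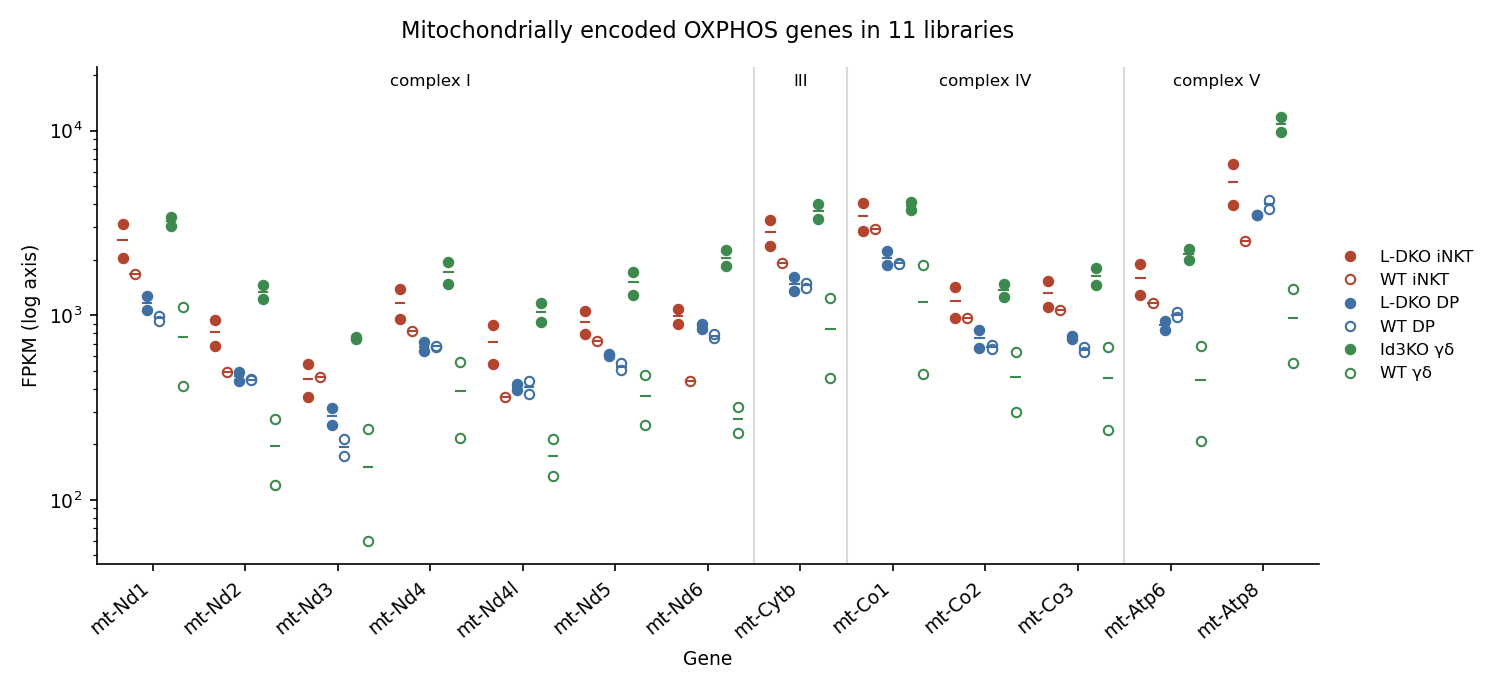
FPKM of the 13 mtDNA-encoded OXPHOS genes (log axis) by gene, grouped by complex; each point is a library, each dash the mean of its group, filled for mutant and open for WT cells. The highest point of every gene is an Id3KO γδ library and the lowest a WT γδ library, as with 9848 and 11793 FPKM against 548 and 1390 for mt-Atp8.

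Whether loss of Id3 went with a change in γδ T cells was tested in a model over all 6 groups. In Id3KO γδ, limma called 13 of 13 mtDNA-encoded genes higher and 0 lower at a Benjamini-Hochberg adjusted p under 0.05, where 6.8% of all entries were called higher and 8.35% lower. Their median log2 fold change was 2.29, against -0.08 over all entries. Complex I ran from 2.10 ± 0.31 (SE) for mt-Nd5 to 2.91 ± 0.21 for mt-Nd6, and mt-Cytb of complex III was at 2.27 ± 0.42. Complex IV showed smaller values, from 1.64 ± 0.35 for mt-Co2 to 2.03 ± 0.53 for mt-Co1. In complex V, mt-Atp6 rose by 2.49 ± 0.48 and mt-Atp8 by 3.62 ± 0.42 on the log2 scale, the largest value among the members. limma's adjusted p ran from 0.000442 (mt-Nd6) to 0.0409 (mt-Co1). Without WT γδ library a, 11 of the 13 were called, with a median of 1.63; without Id3KO γδ library b, 5 were called. The calls of mt-Nd2, mt-Nd4l, mt-Nd5, mt-Nd6 and mt-Atp8 remained under every alternative tried. Markers of DP thymocytes, 4 of 8 of them called lower, summed to 129 and 165 FPKM in Id3KO γδ, against 356 and 447 in WT γδ. Markers of iNKT cells, 2 of 4 measured ones called higher, summed to 340 and 284 FPKM in Id3KO γδ, against 145 and 108 in WT γδ. Their part in the OXPHOS values was not tested.

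**Figure D2:**
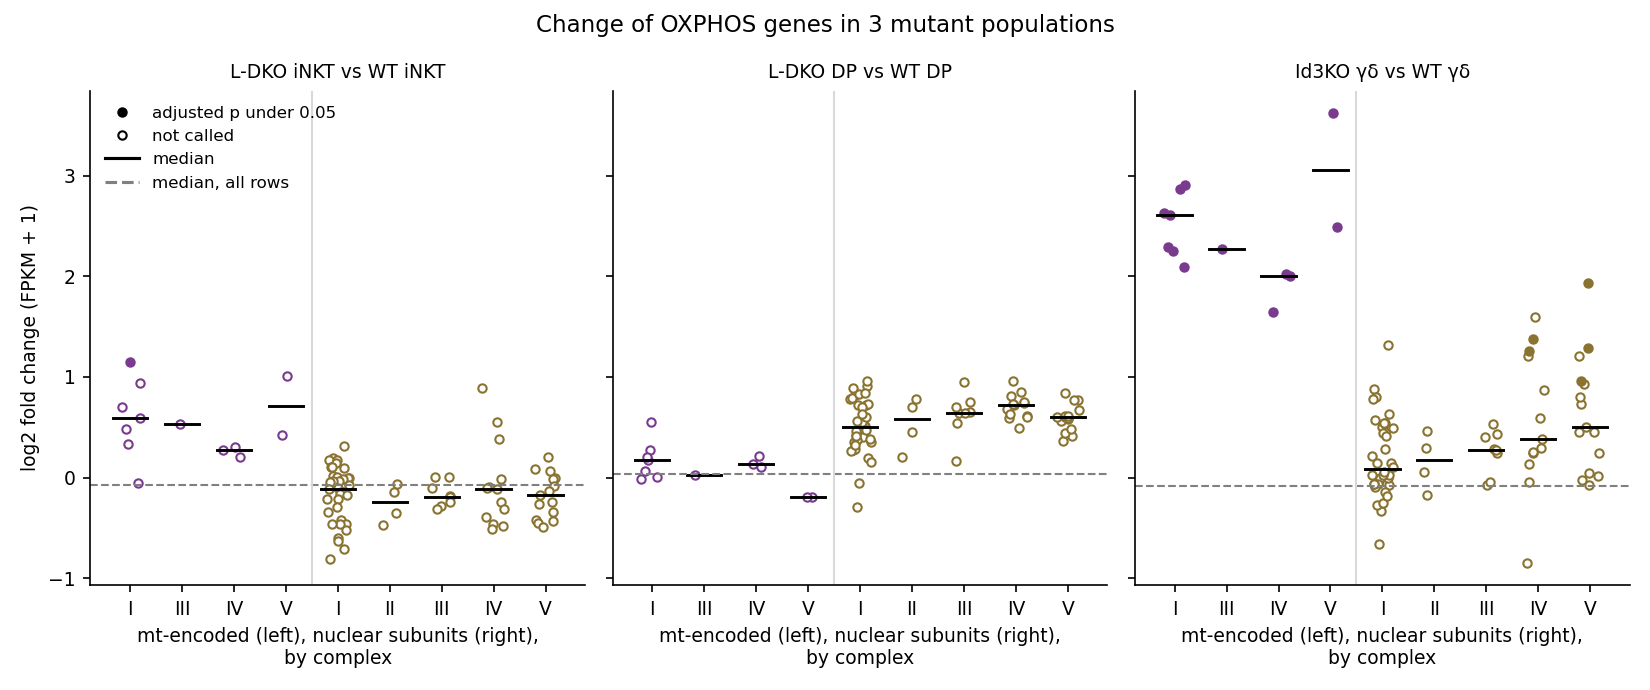
Log2 fold change (FPKM + 1) of mtDNA-encoded genes (purple, left of the line) and nuclear subunits (brown, right) by complex in the 3 mutant comparisons; filled points passed the test, black bars are medians and the dashed line is the median over all entries. The Id3KO γδ panel has all 13 mtDNA-encoded genes filled, between 1.64 and 3.62, and the L-DKO DP panel has its nuclear medians between 0.50 and 0.72 with no filled point.

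Few nuclear partners passed the test in γδ cells. limma called 6 of 85 higher and 0 lower, where 6.8% of all entries were called higher and 8.35% lower, so the higher calls lay near the background and lower calls were absent. At an unadjusted p under 0.05 there were 22, as were 31.8% of all entries, and the median was 0.26. None of 36 nuclear subunits of complex I, 4 of complex II and 8 of complex III was called, with 5, 0 and 0 at an unadjusted p under 0.05. Their medians were 0.08, 0.17 and 0.28. In complex IV, 2 of 13 were called (median 0.38), and in complex V 3 of 15 (median 0.51).

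Among complex IV subunits, Cox7b (chromosome X, 106015700 to 106022450) was at 84.9 and 71.0 FPKM in Id3KO γδ, against 19.2 and 44.6 in WT γδ. Its log2 fold change was 1.37 ± 0.36 (limma adjusted p = 0.0409). Cox7a2, the widely expressed isoform of subunit 7a (chromosome 9, 79755241 to 79771422), was at 111 and 102 FPKM in Id3KO γδ, against 29.2 and 65.8 in WT γδ (1.26 ± 0.34, limma adjusted p = 0.0466). Neither gene's groups overlapped, and library a was the lower WT library for both. In complex V, Atp5k, subunit e of the membrane part (chromosome 5, 108433246 to 108434399), was at 129 and 110 FPKM in Id3KO γδ, against 38.1 and 61.0 in WT γδ (1.29 ± 0.27, limma adjusted p = 0.0202). Atp5g1, which encodes the proton-carrying c subunit (chromosome 11, 96072793 to 96075694), was at 68.8 and 71.6 FPKM in Id3KO γδ, against 27.9 and 45.1 in WT γδ (0.96 ± 0.25, limma adjusted p = 0.0409). Its paralogs Atp5g2 and Atp5g3 encode the same mature protein. The assembly factor Ndufaf4 was at 10.3 and 14.5 FPKM in Id3KO γδ, against 4.59 and 5.95 in WT γδ (1.09 ± 0.29, limma adjusted p = 0.0430). Of the members named for complexes in which no nuclear subunit passed, Ndufb4 of complex I had a log2 fold change of 1.32 ± 0.37 (limma adjusted p = 0.0503), Sdhd of complex II 0.46 ± 0.23 and Uqcrb of complex III 0.53 ± 0.41. Ndufa12 (0.88 ± 0.37), Sdhc (0.29 ± 0.18) and Uqcr10 (0.43 ± 0.26) came next in these complexes. Without WT γδ library a, none of the nuclear calls remained and Uqcrb turned to -0.14.

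Atp5j, the coupling factor 6 subunit of complex V (chromosome 16, 84827871 to 84835857), was the largest nuclear rise, at 1.93 ± 0.47 (limma adjusted p = 0.0316). Its Id3KO γδ libraries differed, at 174 and 508 FPKM, against 58.1 and 103 in WT γδ. Atp5o, a stalk subunit of complex V on the same chromosome (91925223 to 91931630), showed the same split, with 102 and 299 FPKM in Id3KO γδ, against 67.3 and 83.7 in WT γδ. Both lie in a stretch of chromosome 16, from Mrpl39 at 84718281 to the last expressed gene ending at 98016756, whose genes stood higher in Id3KO γδ library b than in library a. Of 42 genes there with a mean log2 value over 3, 40 were higher in library b by more than 1 on the log2 scale, and the median difference was 1.84 (3.59-fold). The 195 genes of the chromosome before it had a median of 0.03, with 2 over 1. In the other groups with 2 libraries, the stretch had medians between -0.07 and 0.16. The stretch was chosen after its values were seen, and no cause was tested. Without library b, the log2 fold change of Atp5j was 1.16 (adjusted p = 0.0893).

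**Figure D3:**
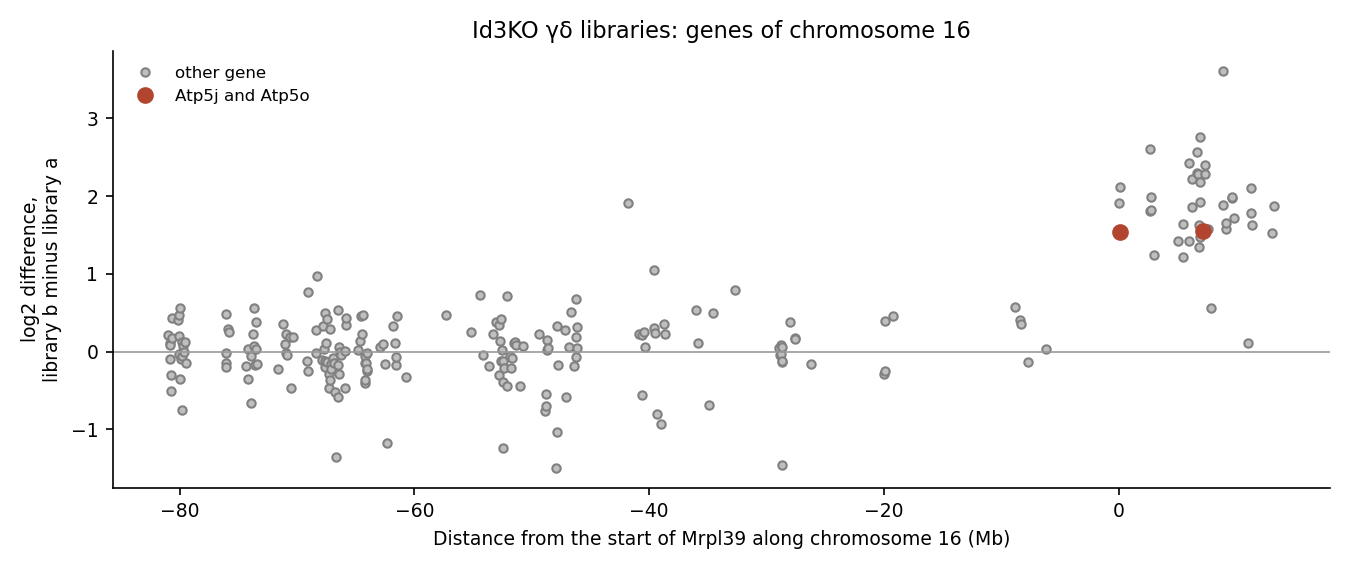
Log2 difference between the Id3KO γδ libraries (b minus a) for genes of chromosome 16, against the distance of their start from the start of Mrpl39 in Mb; red points are Atp5j and Atp5o. Genes to the right of 0 centre on 1.84, while those to its left centre on 0.03.

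The promoters of the 5 nuclear subunit genes called in Id3KO γδ are shown because the genes were called together; each runs from 250 bases before to 50 after a RefSeq start (GRCm38.p6), with motif matches in capitals. Searched on both strands were the NRF1 motif (the half-site GCGCA followed by its reverse complement), the ETS motif CCGGAAG bound by GABP, the YY1 motif AAGATGGCG and CAGGTG, an E-box bound by E2A, the factor that Id proteins hold in check. RefSeq gives Atp5j 2 such windows, and the one shown is that with matches, the other holding none. The window shown also lies within the neighbouring gene Gabpa (84834891 to 84863783), so its matches cannot be assigned to Atp5j alone.
Atp5j, chr16:84834927-84835226, minus strand: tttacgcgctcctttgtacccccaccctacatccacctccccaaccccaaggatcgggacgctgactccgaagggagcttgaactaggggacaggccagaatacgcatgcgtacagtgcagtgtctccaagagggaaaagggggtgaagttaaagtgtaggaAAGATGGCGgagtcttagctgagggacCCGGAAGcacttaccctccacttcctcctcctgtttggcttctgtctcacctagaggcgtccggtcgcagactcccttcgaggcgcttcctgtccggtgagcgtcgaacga
Cox7b, chrX:106015450-106015749, plus strand: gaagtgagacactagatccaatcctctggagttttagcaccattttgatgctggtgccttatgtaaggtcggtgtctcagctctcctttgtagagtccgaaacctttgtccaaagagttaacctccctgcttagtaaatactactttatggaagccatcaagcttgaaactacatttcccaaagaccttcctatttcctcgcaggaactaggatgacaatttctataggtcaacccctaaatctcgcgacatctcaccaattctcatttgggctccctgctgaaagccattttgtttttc
Atp5k, chr5:108434350-108434649, minus strand: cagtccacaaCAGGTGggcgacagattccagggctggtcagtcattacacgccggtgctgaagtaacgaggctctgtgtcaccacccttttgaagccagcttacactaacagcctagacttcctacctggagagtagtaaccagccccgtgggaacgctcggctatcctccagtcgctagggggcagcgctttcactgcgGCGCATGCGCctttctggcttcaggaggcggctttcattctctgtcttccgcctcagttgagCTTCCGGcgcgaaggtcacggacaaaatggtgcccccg
Cox7a2, chr9:79759804-79760103, minus strand: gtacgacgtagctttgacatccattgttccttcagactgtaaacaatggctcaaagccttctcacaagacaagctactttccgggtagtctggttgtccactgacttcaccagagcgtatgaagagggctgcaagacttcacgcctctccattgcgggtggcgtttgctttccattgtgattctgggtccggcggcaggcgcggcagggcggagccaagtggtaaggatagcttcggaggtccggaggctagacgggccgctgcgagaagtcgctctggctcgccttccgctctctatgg
Atp5g1, chr11:96075582-96075881, minus strand: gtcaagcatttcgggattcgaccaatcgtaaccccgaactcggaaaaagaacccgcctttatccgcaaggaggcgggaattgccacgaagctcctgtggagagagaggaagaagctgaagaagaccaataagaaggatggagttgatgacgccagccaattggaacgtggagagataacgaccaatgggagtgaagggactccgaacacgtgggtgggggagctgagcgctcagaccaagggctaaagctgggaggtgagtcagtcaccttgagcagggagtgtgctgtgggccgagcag
Atp5j held a YY1 and an ETS match, and Atp5k an NRF1, an ETS and an E-box match. In Cox7b, Cox7a2 and Atp5g1 these letters were not found in the window. Of 78 promoters of 72 nuclear members, 8.97% held the NRF1 motif, against 0.971% of 32851 promoters of the same length. The ETS motif stood in 21.8% of member promoters, against 8.86% of all, and the YY1 motif in 11.5%, against 1.4%. The E-box was found in 20.5% of member promoters, against 20.2% of all promoters. A match is a description of the sequence and not a bound site.

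The 2 strands of mtDNA did not vary together within WT γδ. The 12 genes of the heavy strand summed to 30293 and 35854 FPKM in Id3KO γδ, against 3433 and 9355 in WT γδ, and each was lower in WT γδ library a than in b. mt-Nd6, read from the light strand, ran the other way, at 319 FPKM in library a and 230 in library b. The heavy-strand sum was 16.3 and 15.99 times mt-Nd6 in Id3KO γδ, against 10.7 and 40.7 times in WT γδ. The ratio was 24.8 and 20.0 in L-DKO iNKT, against 34.2 in WT iNKT, and 16.1 and 13.9 in L-DKO DP, against 17.2 and 16.2 in WT DP. Id3KO γδ and DP libraries thus lay within a narrow range, and the WT γδ pair on both sides of it. mt-Rnr2, a mitochondrial ribosomal RNA targeted by the depletion, was at 363 and 1739 FPKM in Id3KO γδ, against 23.4 and 6.29 in WT γδ, and at 107 and 215 in L-DKO DP, against 273 and 1267 in WT DP. Its part in the mtDNA-encoded results was not tested.

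**Figure D4:**
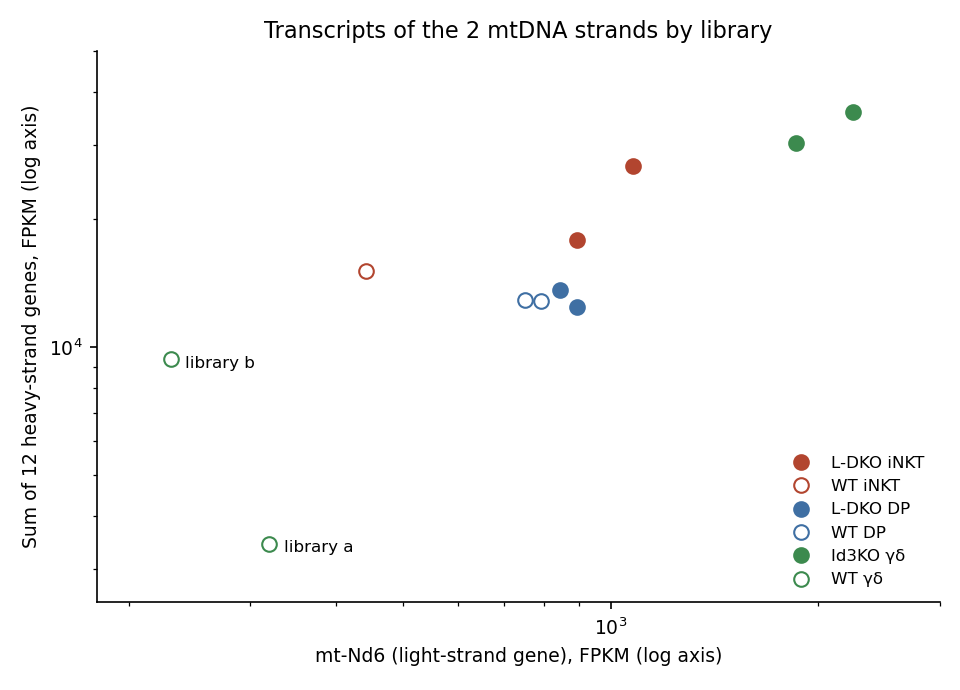
Sum of the 12 heavy-strand OXPHOS genes against mt-Nd6, both in FPKM on log axes; each point is a library, filled for mutant and open for WT cells. WT γδ libraries a and b sit at 3433 and 9355 on the vertical axis but at 319 and 230 on the horizontal axis.

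In iNKT cells, the mtDNA-encoded genes stood somewhat higher in the libraries labelled L-DKO iNKT, and few differences held against the error. limma called 1 of 13 higher and 0 lower, and 0 of 85 nuclear members, where 2.18% of all entries were called higher and 3.88% lower. At an unadjusted p under 0.05 there were 2 mtDNA-encoded and 2 nuclear members, where 18.7% of all entries passed. The call was mt-Nd6, with 1077 and 894 FPKM in L-DKO iNKT, against 442 in WT iNKT. It rose by 1.15 ± 0.26 on the log2 scale (limma adjusted p = 0.0420). The call ended once L-DKO iNKT library a was left out (adjusted p = 0.135), and also without either library of L-DKO DP or of WT DP, which set the shared spread (0.0905 and 0.0732). mt-Atp8 had a log2 fold change of 1.01 ± 0.51 and mt-Nd4l 0.94 ± 0.37, neither past the test. The median was 0.59 over mtDNA-encoded complex I genes, 0.28 over complex IV and 0.49 over all 13, against -0.07 over all entries.

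Nuclear subunits had a median log2 fold change of -0.14 in L-DKO iNKT over WT iNKT, with 18 of 76 above 0. By complex, the medians ran from -0.25 (complex II) to -0.11 (complex I). Ndufa13, an accessory subunit of complex I, was at 23.3 and 27.2 FPKM in L-DKO iNKT and 45.01 in WT iNKT, its fold change being -0.81 ± 0.22 on the log2 scale (limma adjusted p = 0.0814). Ndufb7, also of complex I, had -0.71 ± 0.27, the membrane anchor Sdhd of complex II -0.47 ± 0.28, and the hinge protein Uqcrh of complex III -0.31 ± 0.26. Cox7a2 of complex IV had 0.55 ± 0.42 and Atp5g1 of complex V -0.49 ± 0.31. Next in complexes II to V were Sdha (-0.35 ± 0.22), Uqcrfs1 (-0.28 ± 0.25), Cox7c (-0.51 ± 0.45) and Atp5l (-0.45 ± 0.42). None of these passed the test, and WT iNKT has a single library whose spread was assumed like that of the other groups.

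In DP thymocytes, most nuclear members stood higher in L-DKO DP without passing the test, while the median of the mtDNA-encoded genes lay close to 0. limma called 0 of 13 mtDNA-encoded and 0 of 85 nuclear members in L-DKO DP, where 0.118% of all entries were called higher and 0.0592% lower. At an unadjusted p under 0.05 there were 0 mtDNA-encoded and 39 nuclear members, where 11.3% of all entries passed. The nuclear median log2 fold change was 0.60, against 0.04 over all entries, and 73 of 85 nuclear members had both L-DKO DP libraries above both WT DP libraries, as did 31.3% of all entries. Among all 11 libraries, WT DP library b held the lowest value of 35 of the 76 nuclear subunits, and WT DP library a of 8. The mtDNA-encoded median was 0.10, with both complex V genes at -0.19 and mt-Nd3 highest at 0.56. Of the 13, 5 had both L-DKO DP libraries above and 2 had both below the WT DP libraries, where 23.9% of all entries had both below.

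The nuclear medians lay above 0 in every complex, at 0.50 over the 36 nuclear subunits of complex I, 0.58 over complex II, 0.65 over complex III, 0.72 over complex IV and 0.60 over complex V. Cox6a1, the widely expressed isoform of subunit 6a, was at 156 and 139 FPKM in L-DKO DP, against 85.3 and 65.9 in WT DP (0.96 ± 0.21, limma adjusted p = 0.178). Uqcr11, a small subunit of complex III, was at 62.7 and 65.3 FPKM in L-DKO DP, against 32.4 and 32.9 in WT DP (0.95 ± 0.18, limma adjusted p = 0.121). The groups did not overlap for either gene. Atp5e, the epsilon subunit of the ATP synthase stalk, was at 122 and 98.9 FPKM in L-DKO DP, against 71.2 and 52.2 in WT DP (0.84 ± 0.21). The membrane anchor Sdhc was at 39.4 and 34.7 FPKM in L-DKO DP, against 19.5 and 22.6 in WT DP (0.79 ± 0.18). In complex I, the accessory subunits Ndufa2 and Ndufb4 had log2 fold changes of 0.96 ± 0.29 and 0.91 ± 0.37. Next in the other complexes were Sdhd (0.70 ± 0.23), Uqcrq (0.76 ± 0.31), Cox7b (0.85 ± 0.36) and Atp5k (0.77 ± 0.27). The core subunit Ndufs1 went the other way, at 34.4 and 40.4 FPKM in L-DKO DP, against 47.1 and 44.7 in WT DP (-0.29).

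Short transcripts of other pathways stood higher too. Of the nuclear members, 44 of the 81 with a GENCODE vM1 coding transcript had a longest one under 1000 bases. The 702 other genes that short had a median log2 fold change of 0.44 in L-DKO DP over WT DP, against 0.02 for the 8639 longer ones that were no members. The same pair of medians was 0.23 and -0.12 in Id3KO γδ over WT γδ, and -0.24 and -0.04 in L-DKO iNKT over WT iNKT. The part of length in the OXPHOS values was not tested. With each library rescaled to the same total of nuclear genes outside small RNA, receptor segments and predicted genes, the nuclear median in DP cells was 0.41 and that of all entries -0.14.

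Between WT cell types, nuclear members were called higher about as often as all entries, with a single lower call. limma called 12 of 85 nuclear members higher and 1 lower in WT iNKT than in WT DP, where 16.3% of all entries were called higher and 8.73% lower, and 0 of 13 mtDNA-encoded genes, 1 of them at an unadjusted p under 0.05, as were 37.8% of all entries. In WT γδ against WT DP, 15 of 85 nuclear members were called higher and 0 lower, where 14.6% of all entries were called higher and 6.03% lower. Atp5e was at 197 FPKM in WT iNKT and 126 and 137 in WT γδ, against 71.2 and 52.2 in WT DP (1.67 ± 0.25 and 1.10 ± 0.21, limma adjusted p = 0.00294 and 0.00931). Atp5g1 was at 62.6 in WT iNKT and 27.9 and 45.1 in WT γδ, against 21.7 and 16.01 in WT DP (1.69 ± 0.31 and 0.89 ± 0.25). Cox7a2l, counted to complex IV, was at 135 FPKM in WT iNKT and 156 and 138 in WT γδ, against 66.0 and 58.9 in WT DP (1.10 ± 0.34 and 1.22 ± 0.28). Sdhc of complex II was called higher in both cell types too (0.76 ± 0.22 and 0.67 ± 0.18). In WT γδ, the small complex III subunit Uqcrq was at 98.3 and 136 FPKM, against 51.2 and 36.3 in WT DP (1.401 ± 0.31). Also called higher in both were Ndufa2 (1.23 ± 0.35 and 1.04 ± 0.29), Cox5a (1.13 ± 0.28 and 0.92 ± 0.23) and Atp5g2 (1.35 ± 0.30 and 0.94 ± 0.25). Ndufa13 (0.97 ± 0.22) and Cox8a (1.44 ± 0.36) were called higher in WT iNKT, and Ndufs8 (0.67 ± 0.17) and Uqcrc1 (0.73 ± 0.20) in WT γδ. These comparisons share the WT DP libraries, and without WT DP library b they called 4 and 2 members.

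Of the 13 mtDNA-encoded genes, 4 were called lower in WT γδ than in WT DP, where 6.03% of all entries were called lower. They were mt-Nd6 (-1.51 ± 0.21), mt-Atp8 (-2.19 ± 0.42), mt-Nd2 (-1.29 ± 0.36) and mt-Nd4l (-1.27 ± 0.30). The other 9 were below 0 as well. Without WT γδ library a, 2 mtDNA-encoded genes were called lower, and without WT γδ library b all 13. Without WT DP library b the calls of mt-Atp8, mt-Nd2 and mt-Nd4l ended, and without WT DP library a those of mt-Nd2 and mt-Nd4l. The call of mt-Nd6 remained under every alternative. Between WT iNKT and WT γδ, limma called 0 of 98 members, where 1.22% of all entries were called higher and 1.56% lower. All 13 mtDNA-encoded genes had an unadjusted p under 0.05 there, with a median log2 fold change of 1.36, as did 5 nuclear members and 18.2% of all entries.

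The mutant populations were also set against each other. L-DKO iNKT against L-DKO DP gave 0 of 13 mtDNA-encoded calls (median 0.76, 2 at an unadjusted p under 0.05, where 36.6% of all entries passed), and 1 nuclear member higher and 6 lower, where 13.4% of all entries were called higher and 10.8% lower. The higher one was Ndufaf4, at 16.5 and 9.58 FPKM in L-DKO iNKT, against 4.51 and 3.92 in L-DKO DP (1.38 ± 0.29). The lower ones were Cox6b2, Ndufs5 (-0.88 ± 0.23), Ndufs4 (-0.75 ± 0.23), Cox6a1 (-0.71 ± 0.21), Atp5h (-0.70 ± 0.17) and Ndufs8 (-0.60 ± 0.17). Of these, Ndufs8 is a core iron-sulphur subunit of complex I, and Ndufs4 and Ndufs5 are accessory subunits. Without L-DKO DP library a, none of the 7 was called. In L-DKO iNKT against Id3KO γδ, mt-Nd6 alone was called, lower at -1.06 ± 0.21 (limma adjusted p = 0.0375), where 2.07% of all entries were called higher and 1.9% lower. That call ended without any 1 of 8 libraries, among them each library of the groups compared.

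Isoforms of the same subunit were compared because their balance is known to differ between tissues. Cox6b2, described as a testis isoform of subunit 6b, was at 1.48 and 1.72 FPKM in L-DKO iNKT, 0.40 in WT iNKT, 10.9 and 8.03 in L-DKO DP, 6.15 and 5.46 in WT DP, 3.90 and 0.93 in Id3KO γδ, and 3.78 and 5.43 in WT γδ. It was lower in WT iNKT than in WT DP (-2.28 ± 0.49, limma adjusted p = 0.0124) and in L-DKO iNKT than in L-DKO DP (-2.001 ± 0.40, limma adjusted p = 0.00942), and the WT call remained under every alternative that kept the gene. Its widely expressed partner Cox6b1 ranged from 79.4 to 175 FPKM, so Cox6b2 was the minor isoform in all libraries. The other isoforms in the table, Cox4i1, Cox6a1, Cox7a2 and Cox8a, were the widely expressed ones of their subunits, and Cox4i2, Cox6a2, Cox7a1, Cox8b and Cox8c had no entry. Among the 3 genes of the c subunit, Atp5g3 led in every library, at 79.5 to 255 FPKM. Ndufa4, once counted to complex I and now to complex IV, was at 150 and 214 FPKM in Id3KO γδ, against 33.4 and 103 in WT γδ, and did not pass the test.

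**Figure D5:**
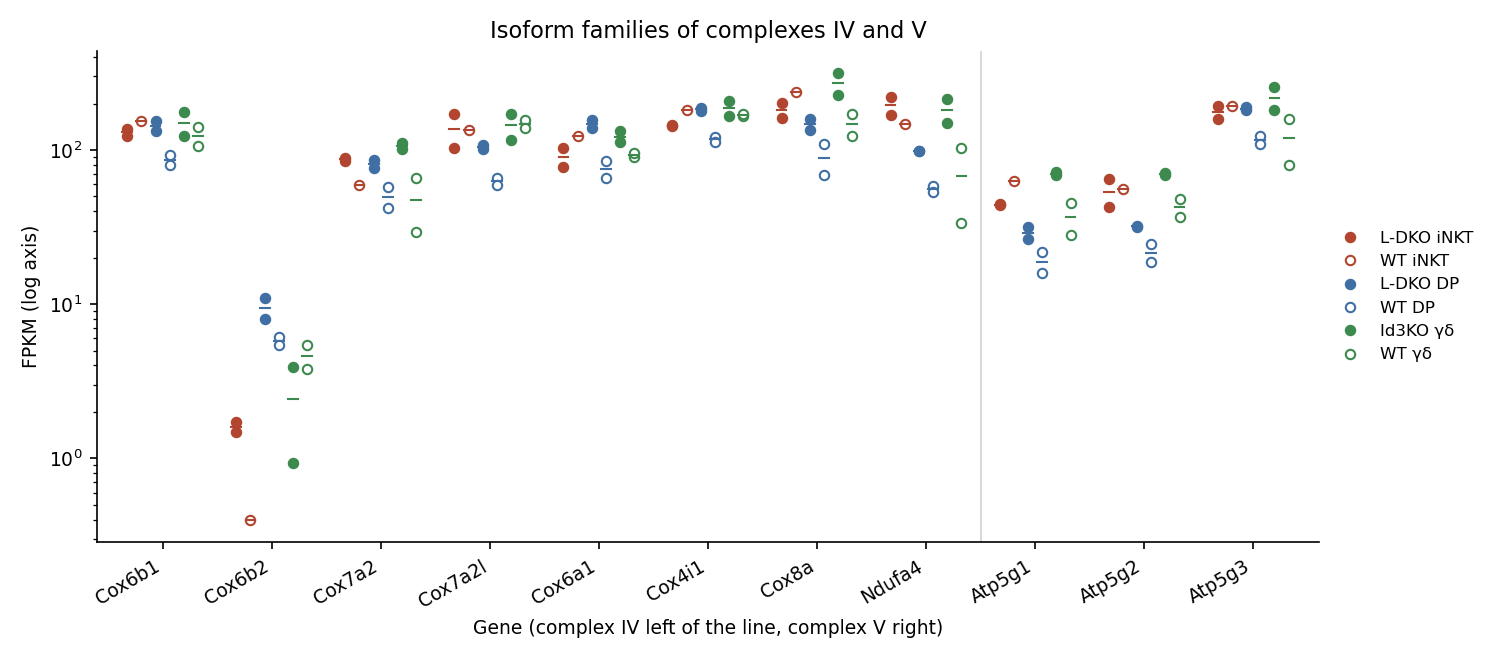
FPKM (log axis) of genes with isoforms or relatives in complexes IV and V; each point is a library, each dash the mean of its group, filled for mutant and open for WT cells. Cox6b2 lies between 0.40 and 10.9 FPKM, highest in DP cells, and Cox6b1 between 79.4 and 175.

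Genes that serve the pathway without being members were read from lists, for a comparison in which 6.8% of all entries were called higher and 8.35% lower. At an unadjusted p under 0.05, 31.8% of all entries passed in it. Of 24 measured genes for mtDNA transcription and RNA handling, 1 was called in Id3KO γδ, the transcription factor Tfb2m (higher, 0.77 ± 0.19), and the median was 0.32, against -0.08 over all entries. Tfam, the packaging and transcription factor of mtDNA, was at 18.4 and 23.3 FPKM in Id3KO γδ, against 16.4 and 26.5 in WT γδ, with overlap. Of 10 mtDNA replication genes, 1 was called lower, the polymerase Polg (-1.29 ± 0.24). Among 10 nuclear regulators, 2 were called higher, Myc, at 85.1 and 76.2 FPKM in Id3KO γδ, against 28.1 and 26.7 in WT γδ (1.52 ± 0.30), and Tfeb (0.85 ± 0.21). Of the 10, 6 had a log2 fold change above 0 and 0 were called lower. Nrf1 went the other way, at 24.3 and 26.7 FPKM in Id3KO γδ, against 35.7 and 38.2 in WT γδ. Gabpa, the DNA-binding subunit of GABP, lies in the stretch of chromosome 16 above and was at 18.8 and 84.7 FPKM in Id3KO γδ, against 17.6 and 21.9 in WT γδ. Of 8 carriers and subunits whose symbols the rule misses, cytochrome c (Cycs) was called higher (0.76 ± 0.17), with a list median of 0.64. Of 78 mitochondrial ribosomal proteins, 3 were called higher and 0 lower (median 0.29), of 18 enzymes of the TCA cycle 2 were called higher and 1 lower, and of 28 assembly factors of the other complexes 0 in either direction, with 4 at an unadjusted p under 0.05. Of the 2 mitochondrial ribosomal RNAs, mt-Rnr2 was called higher (5.90 ± 0.96), and of 3 mitochondrial transfer RNAs 0 were called, with 1 at an unadjusted p under 0.05. The counts for the TCA cycle and for mtDNA replication lay near the share of all entries called. Those for mtDNA transcription and RNA handling, mitochondrial ribosomal proteins and assembly factors of the other complexes lay below it. In the TCA cycle, Idh3a (0.85 ± 0.19) and Suclg1 (0.54 ± 0.15) were higher and Idh2 (-0.99 ± 0.16) lower.

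In the comparisons of L-DKO with WT cells of the same type, these lists held 1 call. It was Surf1, an assembly factor of complex IV, lower in L-DKO iNKT than in WT iNKT (-0.91 ± 0.20, limma adjusted p = 0.0420), where 3.88% of all entries were called lower. In L-DKO DP over WT DP, the mitochondrial ribosomal proteins had a median of 0.35, with 72 of 78 above 0, and the 8 carriers and subunits missed by the rule one of 0.56, with all 8 above 0. limma called 0 genes in either set. At an unadjusted p under 0.05 there were 18 of 78 ribosomal proteins and 1 of 8 carriers and subunits, where 11.3% of all entries passed.

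The difference between effects was tested for each member. For the L-DKO effect in iNKT minus the Id3KO effect in γδ, all 13 mtDNA-encoded genes lay below 0. They ran from -2.68 (mt-Nd3) to -1.37 (mt-Co2), with a median of -1.76, against -0.02 over all entries. The L-DKO effect in iNKT minus the Id3KO effect in γδ was past the threshold for mt-Nd6 alone (-1.76, limma adjusted p = 0.0238), where 3.25% of all entries were called higher and 3.35% lower. The L-DKO effect in iNKT minus that in DP was past it for 0 of 98 members in limma, where 1.73% of all entries were called (0.491% higher and 1.24% lower), with 1 mtDNA-encoded and 27 nuclear members at an unadjusted p under 0.05, as were 15.9% of all entries. The nuclear median was -0.46 for iNKT minus γδ, with 73 of 85 below 0, against -0.02 over all entries. For iNKT minus DP it was -0.77, with 79 of 85 below 0, against -0.12 over all entries.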

How the data were processed

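RNA was sequenced from sorted thymocytes in 6 groups. RNA was depleted of ribosomal RNA by RNase H, primed at random and sequenced strand-specifically. Per the labels, the authors processed reads with Trimmomatic 0.32, TopHat2 2.0.9 and Cufflinks 2.2.0 on mm10. The deposited values are log2 of FPKM + 1, for 11 libraries of 12 labelled samples, since the study left out 1 WT iNKT library. Read depth is not given by FPKM, so an exact 0 is called listed at 0. The authors' 5 columns of group means and 3 of ratios were not used.

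limma 3.58.1 (R 4.3.3) was fitted to all 11815 entries with 6 group means, and two-sided p-values were adjusted by Benjamini-Hochberg over all entries, with a threshold of 0.05. Fold changes are on the log2(FPKM + 1) scale, which understates low genes. WT iNKT has 1 library, whose spread was taken from the other groups. No source used here says that libraries came from separate sorts, so p-values measure the spread between libraries. Named were all mtDNA-encoded members, the nuclear subunits called (at most 4 per complex, 2 between cell types) with the largest change or, where none passed, 2 per complex with a mean of at least 10 FPKM, and isoform families. Ndufs1, Atp5o, Ndufaf4, Tfam, Nrf1, Gabpa and the genes of the chromosome 16 stretch were chosen after their values were seen. The members and lists were chosen with earlier results of these data known. All 98 members were matched to RefSeq GRCm38.p6, 2 by an older symbol. The script was tested on simulated data. Alternatives were a pseudocount of 0.1, a mean of at least 5 FPKM, 3 scalings (quantile, median-ratio, nuclear coding total), a fit of only the groups compared, a variance trend, and leaving out each library. Figures used Python 3.11.15 and matplotlib 3.10.9.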

Additional observations from a re-analysis of the deposited data

Results flagged for a closer look

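The effects on mt-Nd6 of L-DKO in iNKT cells and of Id3KO in γδ cells differed, and genotype and cell type, which change together in this difference, cannot be told apart. The L-DKO effect in iNKT minus the Id3KO effect in γδ cells was -1.76 ± 0.33 on the log2 scale (limma adjusted p = 0.0238), from effects of 1.15 and 2.91. The difference kept its sign under all alternatives, with adjusted p between 0.0209 and 0.210. It missed the threshold with quantile normalization (-0.96), with only the groups compared, with a variance trend, and without either L-DKO DP library or Id3KO γδ library b. The single WT iNKT library, which also carried γδ T cell markers at 736 FPKM, enters the first effect, and its part was not tested. The same difference of effects was below 0 for all 13 mtDNA-encoded genes, with a median of -1.76. Its size was thus not particular to mt-Nd6.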

How the results depend on the processing

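No paired analysis was possible because the columns of the table carry no replicate numbers. Counts are of OXPHOS genes called, given without the share of all entries called under the same alternative. For L-DKO iNKT against WT iNKT the count was 1, with 0 under a pseudocount of 0.1, only the groups compared or a variance trend, 4 under quantile normalization, and 0 to 1 leaving out a library. For L-DKO DP against WT DP it was 0, and 0 to 0 leaving out a library. For Id3KO γδ against WT γδ it was 19, with 5 under only the groups compared and 6 to 26 leaving out a library. For WT iNKT against WT DP it was 13, with 7 rescaled to the nuclear coding total, 3 with only the groups compared and 4 to 18 leaving out a library. For WT γδ against WT DP it was 19, with 11 under quantile normalization, 10 under median-ratio scaling, 9 rescaled, 8 with only the groups compared and 2 to 20 leaving out a library. For WT iNKT against WT γδ it was 0, with 11 under only the groups compared and 0 to 13 leaving out a library. For L-DKO iNKT against L-DKO DP it was 7, with 13 under quantile normalization and 0 to 13 leaving out a library. For L-DKO iNKT against Id3KO γδ it was 1, with 0 under a pseudocount of 0.1, quantile normalization, rescaling, only the groups compared or a variance trend, and 0 to 2 leaving out a library. For the iNKT effect minus the γδ effect it was 1, with 0 under quantile normalization, only the groups compared or a variance trend, and 0 to 17 leaving out a library. For the iNKT effect minus the DP effect it was 0, with 1 under quantile normalization, 1 with only the groups compared and 0 to 0 leaving out a library.

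The median log2 fold change of mtDNA-encoded genes in L-DKO iNKT (0.49) was 1.05 under quantile normalization and 0.22 to 0.75 leaving out a library, and that of nuclear members (-0.14) was 0.0499 rescaled and -0.29 to -0.03 leaving out a library. In L-DKO DP the mtDNA-encoded median (0.10) was -0.40 under quantile normalization and -0.02 to 0.16 leaving out a library, and the nuclear one (0.60) was 0.41 rescaled and 0.51 to 0.62. In Id3KO γδ they ran from 1.63 to 2.96 and from 0.12 to 0.45 leaving out a library. The nuclear median in L-DKO iNKT and the mtDNA-encoded median in L-DKO DP thus changed sign under an alternative. Of the single genes followed, Uqcrb turned sign in Id3KO γδ (-0.14 without WT γδ library a). In L-DKO iNKT, mt-Co1 (-0.0433 without L-DKO iNKT library a) and mt-Nd3 (0.41 under quantile normalization, 0.00698 under median-ratio scaling, 0.14 rescaled, 0.24 without L-DKO iNKT library b) turned sign. The causes were not tested. With 2 libraries or fewer in a group, and depth unknown, small differences cannot be resolved.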

Other observations

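Beyond the OXPHOS members, the stretch of chromosome 16 that holds Atp5j and Atp5o carried other mitochondrial genes with the same split between the Id3KO γδ libraries. The mitochondrial ribosomal protein genes Mrpl39 and Mrps6 were at 10.6 and 42.6 FPKM and at 16.7 and 93.0 FPKM in Id3KO γδ, against 7.75 and 12.8 FPKM and 9.72 and 13.3 FPKM in WT γδ. Son, a splicing factor gene, was at 163 and 1108 FPKM in Id3KO γδ, against 168 and 152 in WT γδ. The exceptions in the stretch were Runx1 (54.8 and 81.3 FPKM in Id3KO γδ) and Ets2 (14.3 and 15.5 FPKM). Of 538 windows of 2 Mb with at least 5 genes, the 4 inside the stretch had median differences between library b and library a of 1.77 to 1.89 on the log2 scale, against at most 0.489 elsewhere. The stretch and these genes were chosen after their values were seen.

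Y-linked genes also differed between the libraries of that group. Ddx3y was at 8.16 and 254 FPKM in Id3KO γδ, against 0.0365 and 32.6 in WT γδ, and Uty at 4.63 and 202 FPKM, against 0.133 and 30.5. No cause was tested for either pattern.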
